A study of Mus musculus with 12 samples.

Results

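H3K27me3, the trimethylation of lysine 27 of histone H3, was examined in its broad domains in mouse mesenchymal stem cells (MSCs), the stromal precursors of osteoblasts, adipocytes and chondrocytes. Broad domains were defined as autosomal regions of the authors' region table that spanned 100 kb or more in mm10 (GRCm38), and 901 of 28047 regions met this length. The length was measured from the deposited coordinates, and all 901 domains carried the state of both ages in the authors' table. They covered 140.9 Mb, which was 23.1% of the length of all H3K27me3 regions and 5.72% of the autosomes. The median domain spanned 136.5 kb (quartiles 115 and 173 kb), 141 spanned 200 kb or more, 36 spanned 300 kb or more, and the longest reached 644.5 kb. Chromosome X, which the definition left out, held no region above 94.5 kb.

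The mark was profiled by CUT&RUN, in which an antibody tethers a nuclease to a chromatin mark and the released DNA is sequenced. The H3K27me3 libraries comprised 3 from young mice (age 3 to 5 months) and 3 from old mice (age 18 to 22 months), and the same design was used for H3K27ac, the acetylation of the same lysine and a mark of active promoters and enhancers. All cells were cultured at 2% oxygen, 300K cells entered each sample, and the cell suspension was split between the antibodies. The labels name no genotype, strain, sex or animal, and they do not say whether replicates came from separate mice, so p-values measure the spread between these libraries, which may be technical. The H3K27me3 libraries held 3622108 to 9947515 mapped reads, as worked out from the deposited signal, and the median domain held 595 to 1761 reads per library (minimum 189). The cell identity given in the labels was checked on markers. All 8 MSC markers, among them Pdgfra, Thy1 and Prrx1, had an H3K27ac region over the transcription start site (TSS), and only Nt5e also had an H3K27me3 region there. None of 8 blood or endothelial markers had H3K27ac over the TSS, 5 had H3K27me3, and that of the T cell gene Cd3e lay in a broad domain.

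H3K27me3 is deposited by the Polycomb repressive complex PRC2 and is bound by PRC1. In mammals PRC2 is recruited mainly to unmethylated CpG-rich DNA, and its broadest domains lie over genes that set embryonic patterning and cell identity, such as the Hox clusters, when these are silent. In MSCs the PRC2 methyltransferase Ezh2 is known to restrain bone-forming genes.

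The promoters shown first span the range of the domains. They are the 250 bases before the TSS in RefSeq (GRCm38.p6), written 5′ to 3′ on the gene's strand, with every CG dinucleotide in capitals. Gbx2 lay in the second densest domain, Sox2, Irx3 and Slc22a23 lay in domains whose signal was lower in old MSCs, Actc1 lay in one of the faintest domains, and Vmn1r51 lay in the only domain that was called higher in old MSCs.
Gbx2 (chr1:89931177-89931426, minus strand, dense domain): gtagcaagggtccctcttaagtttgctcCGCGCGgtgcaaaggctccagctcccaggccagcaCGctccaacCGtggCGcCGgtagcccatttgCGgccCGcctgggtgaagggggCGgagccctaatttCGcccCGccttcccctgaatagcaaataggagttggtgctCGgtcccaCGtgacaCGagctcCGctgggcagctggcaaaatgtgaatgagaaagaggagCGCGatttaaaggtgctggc
Sox2 (chr3:34649745-34649994, plus strand, dense domain): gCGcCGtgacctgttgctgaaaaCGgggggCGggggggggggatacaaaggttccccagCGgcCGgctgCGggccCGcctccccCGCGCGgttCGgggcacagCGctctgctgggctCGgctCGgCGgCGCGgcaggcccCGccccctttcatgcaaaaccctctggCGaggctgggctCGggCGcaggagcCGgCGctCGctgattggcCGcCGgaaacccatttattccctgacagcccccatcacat
Irx3 (chr8:91801655-91801904, minus strand, middle domain): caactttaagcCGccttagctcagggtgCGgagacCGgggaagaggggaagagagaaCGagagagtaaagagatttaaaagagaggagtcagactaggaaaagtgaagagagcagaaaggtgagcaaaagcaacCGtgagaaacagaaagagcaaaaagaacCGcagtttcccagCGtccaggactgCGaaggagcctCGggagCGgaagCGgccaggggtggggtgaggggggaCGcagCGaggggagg
Slc22a23 (chr13:34345219-34345468, minus strand, dense domain): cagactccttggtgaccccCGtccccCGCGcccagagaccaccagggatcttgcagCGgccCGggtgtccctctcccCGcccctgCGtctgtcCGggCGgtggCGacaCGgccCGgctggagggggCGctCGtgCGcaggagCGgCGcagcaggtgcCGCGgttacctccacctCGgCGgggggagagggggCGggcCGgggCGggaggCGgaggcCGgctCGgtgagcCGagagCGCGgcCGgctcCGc
Actc1 (chr2:114052876-114053125, minus strand, faint domain): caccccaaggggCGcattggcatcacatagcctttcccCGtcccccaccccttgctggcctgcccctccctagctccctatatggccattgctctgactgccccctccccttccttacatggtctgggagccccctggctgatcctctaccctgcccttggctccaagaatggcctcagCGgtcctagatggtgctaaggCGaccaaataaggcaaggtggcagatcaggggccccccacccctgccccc
Vmn1r51 (chr6:90122393-90122642, plus strand, faint domain): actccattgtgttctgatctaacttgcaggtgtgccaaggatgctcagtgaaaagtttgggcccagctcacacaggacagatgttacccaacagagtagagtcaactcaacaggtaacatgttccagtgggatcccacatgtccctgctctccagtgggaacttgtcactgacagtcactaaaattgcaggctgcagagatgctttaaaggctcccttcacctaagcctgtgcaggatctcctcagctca
These windows held 18 CG dinucleotides in Gbx2, 27 in Sox2, 13 in Irx3, 32 in Slc22a23, 4 in Actc1 and 0 in Vmn1r51. The order of the promoters was not that of their domains, since the Gbx2 domain was the richest in CpG (17.3 per kb) and the Slc22a23 domain held 8.03 per kb. The Sox2 domain held 16.4 CpG per kb and was 28.1% repeats, whereas the Vmn1r51 domain held 3.84 CpG per kb and was 46.9% repeats.

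Some of the densest domains also held microRNA genes, and the mature sequences of those of the leading Hox and Rhesus-glycoprotein domains are given with the seed, bases 2 to 8, in capitals (RefSeq, GRCm38.p6). miR-9 is a regulator of neural progenitors, and miR-10 and miR-196 are encoded within Hox clusters.
mmu-miR-9-5p of Mir9-3 (chr7:79505279-79505301, plus strand): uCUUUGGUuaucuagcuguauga
mmu-miR-9-5p of Mir9-1 (chr3:88215613-88215635, plus strand): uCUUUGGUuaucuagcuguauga
mmu-miR-196a-5p of Mir196a-1 (chr11:96265187-96265208, plus strand): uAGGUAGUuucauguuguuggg
mmu-miR-10a-5p of Mir10a (chr11:96317186-96317208, plus strand): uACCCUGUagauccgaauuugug
mmu-miR-10b-5p of Mir10b (chr2:74726074-74726096, plus strand): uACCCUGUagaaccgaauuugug
The pair of miR-9 genes encode the same mature sequence and lay in separate domains on chromosomes 7 and 3, over Rhcg and Rhbg. miR-10a-5p of the Hoxb domain and miR-10b-5p of the Hoxd domain shared the seed ACCCUGU. In all, 58 of 919 autosomal miRNA genes of RefSeq (6.31%) lay whole within 44 of the broad domains, and 192 (20.9%) lay within a shorter H3K27me3 region. The share in broad domains was near the 5.72% of the autosomes that they covered and the 5.65% of protein-coding genes with the TSS in them. Of the 58, 42 were in the denser class of domains described next.

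Density is given as RPKM, reads scaled by the mapped reads of the library and by the domain's own length in kb, because the deposited signal had not been divided by region length. Ranked by the mean of the young libraries, domain density ran from 0.643 to 2.84, a 4.41-fold range, with a median of 1.29. The median of the 26512 shorter autosomal regions was 0.766, and 887 of the 901 domains lay above it. Length and density were only loosely related across domains (Spearman correlation 0.23, a description over 901 domains that share the same libraries). The domains were divided by rank into 300 dense, 301 middle and 300 faint domains, with median young densities of 1.73, 1.29 and 0.993. Since the classes were cut on this density, it is a description and not a test of their difference.

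**Figure D1:**
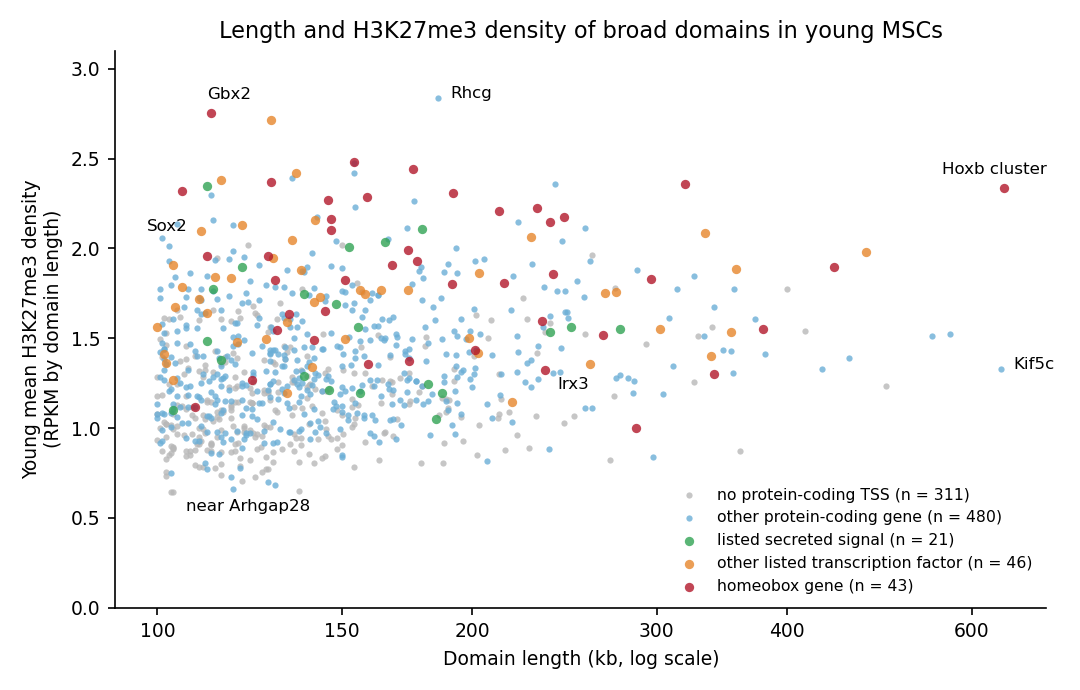
Length (kb, log axis) against mean H3K27me3 density of the young libraries (RPKM) for the 901 broad domains, coloured by the genes whose TSS they hold. Of the homeobox domains 35 of 43 are in the dense class, up to the 644.5 kb Hoxb domain, and 43 of the 311 domains with no protein-coding TSS are, while the domain near Arhgap28 is lowest at 0.643.

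The densest domains lay mostly over regulators of embryonic patterning. First in rank was a 185.5 kb domain (chr7:79473501-79659000) over Rhcg, an ammonium transporter of kidney epithelium, and Mir9-3. Its density was 2.58, 2.92 and 3.02 in young replicates 1 to 3 and 2.44, 2.51 and 1.77 in old replicates 1 to 3. Next came Gbx2, a homeobox gene of the midbrain-hindbrain boundary, in a domain of 112.5 kb (chr1:89897001-90009500). Gbx2 had densities of 2.57, 2.84 and 2.84 in young and 2.41, 2.12 and 1.69 in old libraries. The third was Foxf1, a forkhead gene of the lung and gut mesenchyme, in a domain of 128.5 kb with mean densities of 2.72 in young and 2.11 in old libraries. In each of these domains old replicate 3 had the lowest density of the 6 libraries. The other 9 of the 12 densest domains, with young means between 2.48 and 2.36, lay over Barhl1, over Ephb2 and the complement genes C1qa, C1qb and C1qc, and over Pax3, Nxph3 with Ngfr, Nr2e1, Srcin1 with Epop, Zic5 with Zic2, Otp and Pax2. Of these, Pax3 specifies neural crest and muscle progenitors, Pax2 the kidney and ear, Nr2e1 neural stem cells, and Otp hypothalamic neurons. Epop is itself a partner of PRC2, and Ngfr is a surface receptor that is used to select human MSCs.

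Of the 300 faint domains, 175 held no protein-coding TSS, among them the 3 lowest.
The lowest was a 103.5 kb domain nearest Arhgap28, a GTPase-activating protein, with densities of 0.550, 0.714 and 0.666 in young and 0.704, 1.13 and 0.786 in old libraries. It was followed by domains near Arhgap15 and near Meis1, a homeobox cofactor of Hox proteins, and by those over Gjd2 with Actc1, the cardiac actin gene, and over Gm4894. Their young means lay between 0.645 and 0.682. In the domain over Actc1 the young libraries gave 0.694, 0.660 and 0.631 and the old libraries 0.715, 0.742 and 0.779. The groups did not overlap, but the domain was not called after scaling (limma adjusted p = 0.132). Groups apart with old higher made up 0.333% of domains and 2.85% of all regions as deposited. After scaling these shares were 4.44% and 8.56%. These faint domains were not the longest. The 113 faint domains longer than the median domain had median values of 160.5 kb in length and 1.02 in young density, and 58 of them held no protein-coding TSS.

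The longest domain was that of the Hoxb cluster on chromosome 11 (chr11:96075501-96720000), 644.5 kb with 14 protein-coding TSSs and Mir10a and Mir196a-1. It ranked 15 in density, with 2.10, 2.40 and 2.51 in young and 2.08, 1.91 and 1.53 in old libraries. The other 4 of the 5 longest were much less dense. A 640.5 kb domain held Kif5c, Lypd6b and Lypd6 and had a young mean of 1.33. Domains of 572.5 kb over Rnf182 and Cd83 and of 550.5 kb over Tril, Cpvl, Chn2 and Prr15 had young means of 1.52 and 1.51. A 496.5 kb domain near Nars2 held no protein-coding TSS and had a young mean of 1.24.

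Genes inside the domains were counted by their TSS, taken as the 5′ end of each protein-coding gene in the GENCODE vM21 basic set. Other starts of the same gene were not used. Of the 901 domains, 590 held the TSS of at least 1 protein-coding gene and 315 of these held exactly 1. The other 311 held none, of which 118 lay within or across a gene body and 193 touched no protein-coding gene, and the nearest TSS was a median of 61.7 kb away. A listed developmental gene, from lists of homeobox genes, other developmental transcription factors, and signals with their antagonists, had its TSS in 110 domains (143 genes), and 13 domains held 2 or more. The share of domains with a listed gene was 28.3% in the dense class (85 of 300, 95% Wilson interval 23.5 to 33.7), 6.64% in the middle class (20 of 301) and 1.67% in the faint class (5 of 300, 0.714 to 3.84). In the shorter regions it was 0.871%, but their median length was 10 kb, against 136.5 kb for the domains. A longer region has more room for a TSS, so these shares are not comparable across such lengths. By length, 231 shorter regions with a listed gene lay in 462.6 Mb, and 5 faint domains with one in 41.2 Mb. Ranking the domains by all 6 libraries in place of the young mean gave class shares of 26.7%, 8.31% and 1.67%. The intervals cover counting error only, since neighbouring domains can belong to 1 locus. Of the 901 domains, 395 lay within 5 kb of another H3K27me3 region.

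By role, the domains with a homeobox gene were the densest, with a median young density of 1.90 over 43 domains. Those with another listed transcription factor had a median of 1.75 (46 domains) and those with a listed signal 1.55 (21 domains). The 480 domains with only other protein-coding genes had a median of 1.35, and the 311 with no TSS 1.11. The ranges overlapped widely, since the homeobox domains spanned 1.00 at Pou4f2 to 2.75 at Gbx2.

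The members named next were picked as the densest or faintest of each list after their values were seen. Among homeobox genes outside the Hox clusters, the dense domains held Vax2 of the ventral eye (2.31 young mean), Lbx1 of migrating muscle precursors (2.29), En2 of the midbrain (2.23) and Lmx1b of dorsal limb and kidney (2.14). The homeobox domains of the faint class were those of Hesx1, a pituitary gene (1.12), and Pou4f2, a retinal ganglion cell gene (1.00). Among other transcription factors, Gata4 of heart and gut (2.09), Foxd1 of kidney stroma (2.13), Sox1 of neural progenitors in a 476 kb domain (1.98), and T, the brachyury gene of early mesoderm (1.88), were dense. Myog, the muscle differentiation factor, was in the middle class (1.42), and Ebf2, a factor of adipose and stromal precursors, was the only other listed transcription factor in the faint class (1.14). Among signals, the Wnt9b and Wnt3 domain (2.35), Wnt7a (2.11), the domain of Indian hedgehog gene Ihh, the neuronal factor Fev and Mir375 (2.07), and the Fgf3, Fgf4 and Fgf15 domain (2.01) were dense. The BMP antagonist Nog (1.21) and the ligand Bmp4 (1.19) were in the middle class, and Bmp2 (1.05) and the Fgf6 and Fgf23 domain (1.102) in the faint class.

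The lists differed from genes at large in how many members lay in the domains. Of 174 autosomal homeobox genes, 67 (38.5%) had the TSS in a broad domain, a further 78 (44.8%) in a shorter H3K27me3 region and 29 (16.7%) in none. The shares in a broad domain were 27.3% for other listed transcription factors (50 of 183) and 25.2% for listed signals (26 of 103). Over all 20780 autosomal protein-coding genes, 1174 (5.65%) lay in a broad domain and 4944 (23.8%) in a shorter region. Outside the developmental lists, keratin and keratin-associated genes had 44 of 113 (38.9%) in broad domains, mostly in epidermal gene clusters on chromosomes 11 and 15, and calcium channel genes 7 of 25. Potassium channel genes had 16 of 92 in broad domains and 66 in shorter regions. Gene families that form large clusters were not all covered. Broad domains held 5 of 1127 olfactory receptor genes, 3 of 326 vomeronasal receptor genes, 4 of 385 Zfp zinc finger genes and none of 56 clustered protocadherin genes. The families were counted by symbol.

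**Figure D2:**
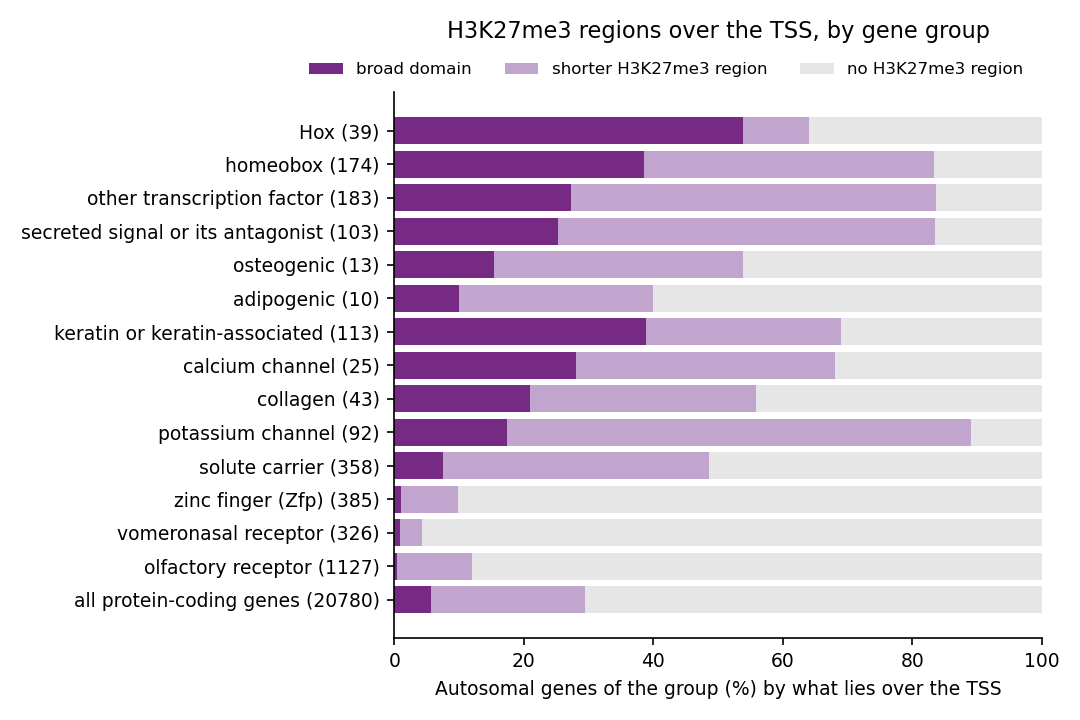
Percent of the autosomal genes of each group (number in brackets) whose TSS lay in a broad H3K27me3 domain, in a shorter H3K27me3 region or in none. The share in broad domains is 38.5% for homeobox genes and 38.9% for keratin genes, against 5.65% of all protein-coding genes.

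The Hox clusters, which set position along the body axis, were divided. Of 39 Hox genes, 21 lay in broad domains: all Hoxb genes, all Hoxd genes, and Hoxa11 and Hoxa13. Hoxc11, Hoxc12 and Hoxc13 lay in a region of 97.5 kb, just below the length used here, at a young density of 2.06, and Hoxc4 lay in a region of 16.5 kb at 0.679. Hoxc5, Hoxc6, Hoxc8, Hoxc9 and Hoxc10 had no H3K27me3 region over the TSS, and each had an H3K27ac region there. The Hoxd domain spanned 244.5 kb (chr2:74580501-74825000) with densities of 1.97, 2.18 and 2.37 in young and 1.99, 1.89 and 1.55 in old libraries. The domain over Hoxa11, Hoxa13 and Evx1 spanned 105.5 kb (chr6:52243501-52349000), with 2.00, 2.31 and 2.64 in young and 2.49, 2.35 and 1.65 in old libraries. In both, old replicate 3 was the lowest library, and old replicate 1 lay within the range of the young libraries.

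Few bone and fat genes were listed, and 3 of them lay in broad domains. Of 13 osteogenic genes, those of Bmp2, a bone morphogenetic protein, and Dlx3, a homeobox factor of osteoblast differentiation, lay in broad domains (15.4%, against 5.65% of all protein-coding genes), 5 lay in shorter regions and 6 in none. Dlx3, with Dlx4, ranked 290 of 901, with densities of 1.30, 1.43 and 1.73 in young and 1.43, 1.57 and 0.987 in old libraries. Bmp2 ranked 709, with 1.08, 1.097 and 0.974 in young and 0.939, 0.630 and 0.825 in old libraries. Of 10 adipogenic genes, only Lpl, the lipase of triglyceride uptake, lay in a broad domain (10.0%), with young densities of 1.04, 1.102 and 1.06 and old densities of 0.971, 0.889 and 0.858. The Dlx3 groups overlapped. As deposited, the Bmp2 and Lpl groups did not overlap and old was lower, as in 48.9% of all domains and 19.9% of all regions. After scaling the Bmp2 groups overlapped. Those of Lpl still did not, as in 24.6% of all domains and 10.6% of all regions. None of the 3 was called after scaling (limma, adjusted p = 0.887 for Dlx3, 0.249 for Bmp2 and 0.540 for Lpl).

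The base composition of the domains followed their density. CpG per kb had medians of 12.3, 10.4 and 8.99 in the dense, middle and faint classes and 8.55 in shorter regions. GC content was 47.3%, 45.0% and 43.7% in the classes, and the repeat share was close in all (22.9%, 23.8% and 24.3%). Across the 901 domains young density had a Spearman correlation of 0.56 with CpG per kb and 0.50 with GC content. Base composition can also affect how fragments are amplified and mapped, and its part in the densities was not tested. The dense domains with a listed gene held 13.8 CpG per kb and those without 11.97. Promoter windows were counted in the same way. In the 250-base windows before RefSeq starts, the median number of CG dinucleotides, a motif that reads the same on both strands, was 6 in dense, 4 in middle and 3 in faint domains, 4 in shorter regions and 7 outside H3K27me3 regions. Windows with 10 or more made up 35.4%, 20.96% and 18.9% in the classes, 26.3% in shorter regions, 44.1% outside regions and 38.3% of all promoters. Where a domain held a single listed TSS, the TSS was placed along its whole length, and 51 of 97 (52.6%) lay in the central 50% of the domain and 8 in the outer 10%.

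H3K27ac was sparse in the domains, as in shorter H3K27me3 regions. H3K27ac regions covered 1.26% of the domain length, against 13.1% of the autosomes and 1.89% of the length of shorter H3K27me3 regions, and 450 domains (49.9%) touched at least 1. The 788 H3K27ac regions that overlapped a domain had a median length of 2.5 kb, against 4.0 kb over the whole H3K27ac table. Of 1174 genes with the TSS in a domain, 80 also had an H3K27ac region over the TSS, and for the 143 listed developmental genes this number was 12, of which 5 were Hox genes. H3K27ac regions in domains held 1.06% ± 0.00708 of the H3K27ac region signal in young and 1.03% ± 0.00875 in old libraries (SD, n = 3). All old libraries were below all young ones (exact permutation, two-sided p = 0.10, the lowest p possible with 3 against 3).

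Of these 788 H3K27ac regions, 2 differed with age (limma, adjusted p under 0.05), against a background of 0.0822% of all 31617 H3K27ac regions, and both were lower in old MSCs and lay in Hox domains. The region over Hoxa13 (chr6:52247001-52264000) had 31.2, 24.8 and 25.2 RPM (reads scaled by library size) in young and 7.94, 7.27 and 5.64 in old libraries, a log2 fold change of -1.81 ± 0.18 (SE, adjusted p = 6.46e-08 with limma). The region over Hoxd9 and Hoxd10 (chr2:74685501-74699500) had 15.4, 8.97 and 13.6 in young and 4.51, 4.00 and 4.30 in old libraries, a log2 fold change of -1.36 ± 0.22 (SE, adjusted p = 0.00238 with limma). In both the groups were far apart. The H3K27me3 density of the domains around them gave log2 fold changes of 0.01 over Hoxa11 to Evx1 (limma, adjusted p = 0.982) and -0.15 over Hoxd (adjusted p = 0.432), with overlapping groups. These values cover whole domains of 105.5 and 244.5 kb, against H3K27ac regions of 17 and 14 kb. H3K27me3 at the H3K27ac regions alone was not measured. Over all 788 regions, 435 had a negative and 353 a positive fold change, with a median of -0.06 against -0.003 in the whole table, and this median was -0.01 without old replicate 2 and -0.02 without old replicate 3. Both calls were lost in limma without trend and robust moderation (adjusted p = 0.293), and that over Hoxd9 also without young replicate 1.

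The domains were then compared between ages. Their share of all mapped H3K27me3 reads was 18.3%, 20.1% and 20.2% in young and 17.9%, 17.2% and 15.1% in old libraries, or 19.5% ± 1.03 against 16.7% ± 1.45 (SD, n = 3). Every old library was below every young library, and the difference of -2.77 percentage points had the smallest p that the design allows (two-sided exact permutation test, p = 0.10). Old replicate 3 was the lowest, and without it the difference was -1.95 (exact p = 0.20). The share of mapped reads inside any H3K27me3 region moved in the same direction, from 62.3 to 66.6% in young to 53.8 to 60.8% in old libraries, and its part in the result was not tested. Among the reads of all regions, the domains held 29.9% ± 0.442 in young and 28.8% ± 0.682 in old libraries (SD, n = 3), and here the groups overlapped (exact permutation test, two-sided p = 0.20). The median log2 density of the domains was 0.37 ± 0.08 in young and 0.18 ± 0.11 in old libraries (SD, n = 3, exact permutation p = 0.10). After scaling of the libraries the difference in this median was -0.06 and p was 0.30. The excess of the domains over shorter regions was 0.73 ± 0.07 in young and 0.64 ± 0.09 in old libraries on the log2 scale (SD, n = 3), and the groups overlapped (exact permutation p = 0.20).

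For single domains the libraries were scaled to the typical region of the table by median ratios, which sets the median log2 fold change of all regions to -0.01, where the deposited scale gave -0.13. Of the 901 domains, 4 were lower in old MSCs at an adjusted p under 0.05 (0.444%), against a background of 0.406% of all 28047 regions, and 1 was higher (0.111%), against a background of 0.0820%. The share called was thus near that of all regions in either direction. The sign of the difference was more one-sided. After scaling, 688 domains (76.4%) had a negative log2 fold change, against 51.4% of all regions, with a median of -0.09 against -0.01. This share was 95.1% with the signal as deposited, against 70.9% of all regions, and 63.9% with equal column sums, against 43.6%. Without old replicate 3 it was 66.8%, against 50.3% of all regions, with a median over domains of -0.05. The scaled groups did not overlap and old was lower in 222 domains (24.6%), against a background of 10.6%, and old was higher in 40 (4.44%), against 8.56%. As deposited, these numbers were 441 domains (48.9%), against 19.9% of all regions, and 3 (0.333%), against 2.85%.

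**Figure D3:**
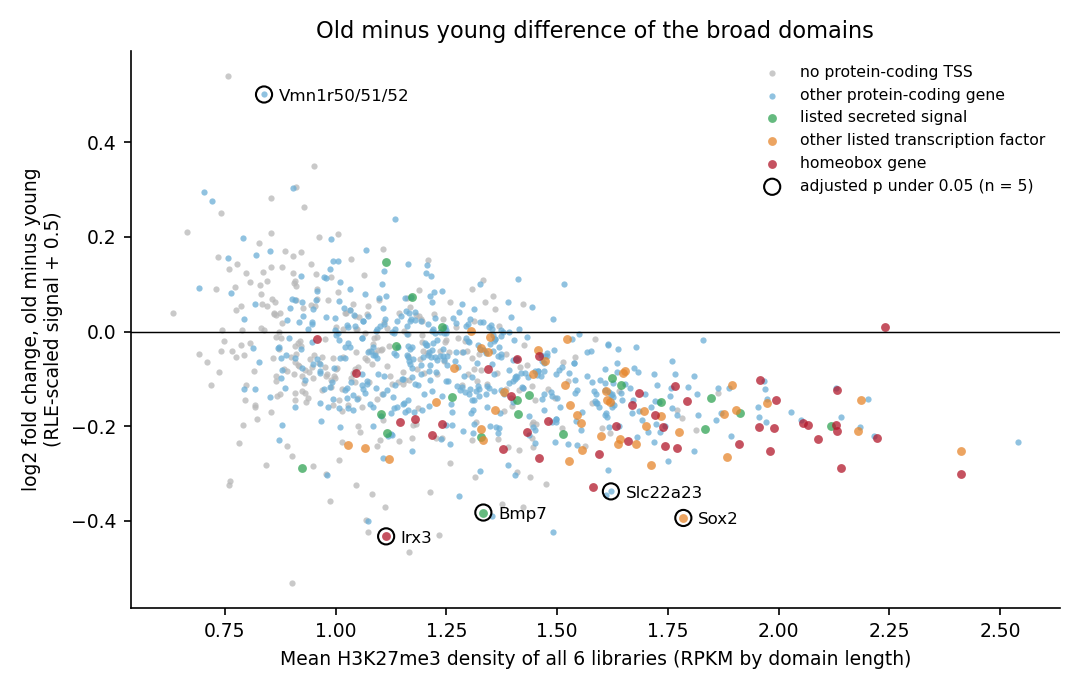
Log2 fold change of scaled H3K27me3 signal, old minus young, against the mean density of all 6 libraries for the 901 domains, coloured by gene content. Circles mark the 5 domains with an adjusted p under 0.05, of which 4 lie below 0. Most domains lie below 0, both with and without a developmental gene.

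The called domains that were lower in old MSCs held Irx3, Sox2, Bmp7 and Slc22a23. Irx3, a homeobox gene of limb and neural patterning, lay in a 234.5 kb domain of the middle class (chr8:91745001-91979500). Its density was 1.29, 1.28 and 1.41 in young and 1.01, 0.930 and 0.778 in old libraries, a log2 fold change of -0.43 ± 0.08 (SE, limma adjusted p = 0.0243). The old libraries lay well below the young ones, as shown by the plot of called and Hox domains by library. The domain also contained 4 H3K27ac regions, the largest number among the called domains.

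Sox2, a transcription factor of pluripotent and neural stem cells, lay in a 110 kb domain that ranked 39 in young density (chr3:34618001-34728000). It had densities of 2.00, 2.12 and 2.16 in young and 1.68, 1.50 and 1.24 in old libraries, a log2 fold change of -0.39 ± 0.09 (SE, limma adjusted p = 0.0449). The groups were apart by more than the range of the young libraries, and no H3K27ac region touched the domain.

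Bmp7, a bone morphogenetic protein of kidney, eye and skeletal development, shared a 248.5 kb domain (chr2:172751001-172999500) with Spo11, the meiotic recombination enzyme. Its density was 1.49, 1.62 and 1.58 in young and 1.21, 1.07 and 1.04 in old libraries, a log2 fold change of -0.38 ± 0.07 (SE, limma adjusted p = 0.0259). The 287.5 kb domain over Slc22a23, an orphan member of the organic ion transporters, lay on chromosome 13 (chr13:34183501-34471000). Its density was 1.74, 1.87 and 2.02 in young and 1.52, 1.32 and 1.26 in old libraries, a log2 fold change of -0.34 ± 0.07 (SE, limma adjusted p = 0.0455). In both domains the highest old library lay below the lowest young library.

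The domain that was higher in old MSCs was a faint one, rank 893 of 901, over the vomeronasal pheromone receptor genes Vmn1r50, Vmn1r51, Vmn1r52 and V1ra8 (chr6:90087001-90204500, 117.5 kb). Its density was 0.682, 0.769 and 0.736 in young and 0.989, 0.984 and 0.871 in old libraries, a log2 fold change of 0.50 ± 0.08 (SE, limma adjusted p = 0.0101). All old libraries lay above all young ones with and without scaling, but the adjusted p was 0.0561 with the signal as deposited. The domain was 46.9% repeat sequence, against a median of 23.7% over all domains, and its receptor genes belong to a family of similar copies, so the position of reads among them is uncertain. The part of either in the difference was not tested.

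**Figure D4:**
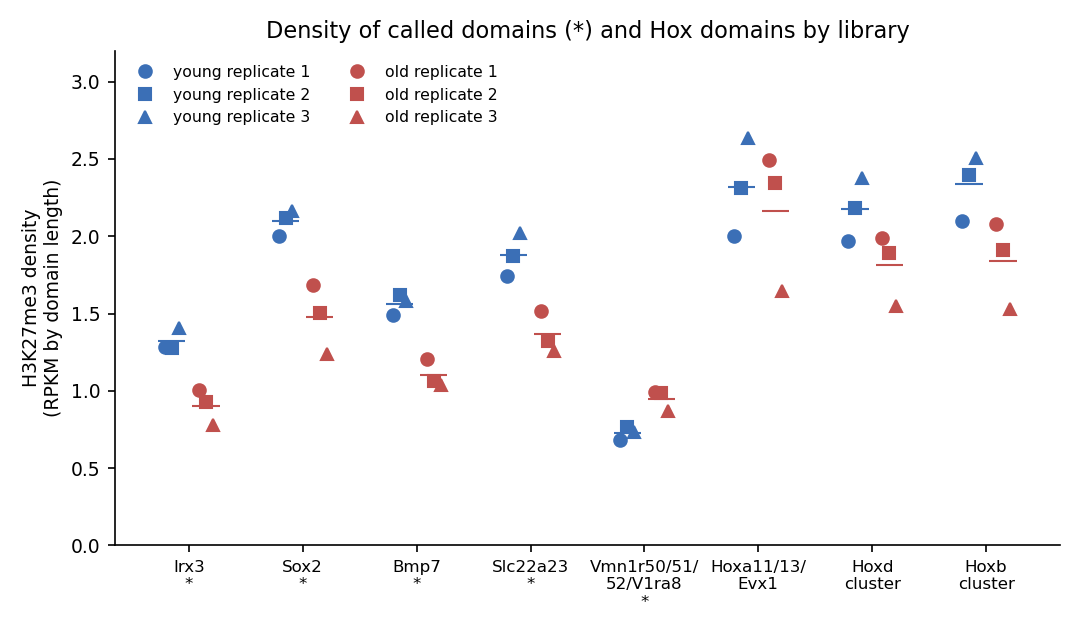
H3K27me3 density (RPKM by the domain's own length) of the 5 domains with an adjusted p under 0.05 (marked *) and the 3 Hox domains, for each of 3 young and 3 old libraries, with a line at each group mean. The groups are apart in the called domains, while old replicate 1 lies among the young libraries over Hoxa11/Hoxa13/Evx1 and Hoxd.

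These calls depended on the libraries and on the test. limma called 0 domains without young replicate 1, 2 or 3, against 0.0428%, 0.0606% and 0.0357% of all regions. In these fits 194, 103 and 113 domains had an unadjusted p under 0.05, and the number over all regions is not reported here. With all 6 libraries 208 domains did, against 3894 of all 28047 regions. By contrast, 17 domains were called without old replicate 1, 9 without old replicate 2 and 7 without old replicate 3 (1.89%, 0.999% and 0.777%, against 0.645%, 1.12% and 0.642% of all regions in the same fits). Over 16 alternatives Irx3 and Bmp7 were called in 12 each, Vmn1r50 to V1ra8 in 11, Sox2 in 10 and Slc22a23 in 8, and none was called by limma without trend and robust moderation. edgeR on the recovered reads called 18 domains (2.00%), against a background of 1.40% of all regions under the same fit. They included all 5 and in addition the domain near Arhgap28 as higher. The largest falls among the added domains were near Fez1 (-0.44, edgeR adjusted p = 0.0148) and over Pknox2 (-0.40, edgeR adjusted p = 0.0342). Others that were lower, picked after their values were seen, were Alx4, a homeobox gene of limb and skull (-0.33, edgeR adjusted p = 0.0493), Cyp26c1 with Cyp26a1, which degrade retinoic acid (-0.34, edgeR adjusted p = 0.0350), and the domain near Hes1 (-0.34, edgeR adjusted p = 0.0351).

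Among domains with a listed developmental gene, the old libraries were lower nearly throughout, as in other dense domains, but few domains passed the test. Of the 110 domains, 105 had a negative log2 fold change after scaling and 5 a positive one, with a median of -0.18 against -0.01 over all regions. The called domains among them were those of Irx3, Sox2 and Bmp7 (2.73% of 110, against 0.406% of all regions called lower). The scaled groups did not overlap in 44 (40.0%), all with old lower, against 24.6% of all domains and 10.6% of all regions. By list the medians were -0.20 over homeobox domains (42 of 43 negative), -0.17 over other transcription factors (45 of 46) and -0.15 over signals (18 of 21). In domains with only other protein-coding genes the median was -0.08 (371 of 480 negative), and in those with no TSS -0.06 (212 of 311). Within the dense class, 84 of 85 domains with a listed gene were negative (median -0.19), and so were 211 of 215 without one (-0.14). Expressed within each library, which removes scaling, the median log2 density of the domains with a listed gene exceeded that of the others by 0.46, 0.50 and 0.49 in young and 0.44, 0.41 and 0.29 in old libraries. This excess was 0.48 ± 0.02 in young and 0.38 ± 0.08 in old libraries (SD, n = 3), and the difference of -0.11 put every old library below every young one (two-sided exact permutation p = 0.10, the smallest possible). Without old replicate 3 the difference was -0.06, with the groups still apart. When the domains were split by CpG content in place of gene lists, a choice made after seeing the data, the excess of the CpG-richest over the CpG-poorest domains was 0.54 ± 0.03 in young and 0.43 ± 0.09 in old libraries (SD, n = 3, exact permutation p = 0.20). Domains with a listed gene held a median of 12.9 CpG per kb and the others 10.3. Their median young densities were 1.76 and 1.25. The part of CpG content or of density in the difference was not tested.

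**Figure D5:**
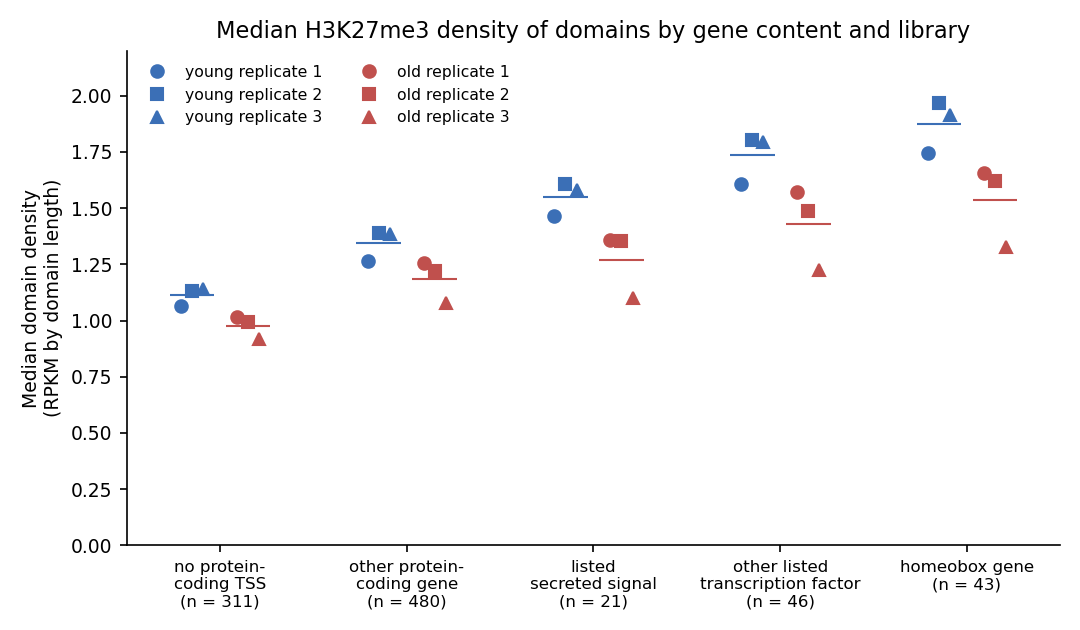
Median H3K27me3 density (RPKM) of the domains of each gene content, by library, with a line at each group mean. Homeobox domains have medians of 1.74 to 1.97 in young and 1.33 to 1.66 in old libraries, and domains with no TSS 1.06 to 1.14 and 0.916 to 1.02, with old replicate 3 lowest throughout.

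The dense and faint classes differed in the size of the age difference, which is given as a description because the young libraries chose the classes. The dense class had a median log2 fold change of -0.15 after scaling, with 295 of 300 domains negative, and the faint class -0.02, with 164 of 300 negative. Of the 40 domains whose scaled groups did not overlap with old higher, all were in the faint class. With the classes cut on all 6 libraries, which treats the ages alike, the medians were -0.14 in the dense, -0.05 in the middle and -0.04 in the faint class, and 37 of the 40 remained in the faint class. Across the domains the log2 fold change had a Spearman correlation of -0.44 with the mean density of all 6 libraries and of -0.40 with CpG per kb, as a description over domains that share the same libraries. Per library, the median density of the dense class was 1.59, 1.79 and 1.80 in young and 1.56, 1.52 and 1.25 in old libraries, and that of the faint class 0.957, 1.01 and 1.01 against 0.936, 0.897 and 0.860. Old replicate 1 therefore lay close to young replicate 1 in both classes, and old replicate 3 was the farthest from the young libraries.

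The length of 100 kb did not mark a break in these values. The 145 domains of 100 to under 110 kb had a median young density of 1.18, and 7.59% held a listed gene, whereas the 222 autosomal regions of 90 to under 100 kb had a median of 1.19, and 6.76% held one. Just over the limit, at 100.0 kb, lay domains near Bcl11b, over Begain and near Etv5 with young means of 1.18, 1.06 and 1.28 and log2 fold changes of -0.21, -0.12 and 0.03. Just under it, at 99.5 kb, lay regions near Prdm1, over Gucy1b2 and over Efcab6, Sult4a1 and Pnpla5 with young means of 1.42, 1.33 and 1.13 and log2 fold changes of -0.05, -0.01 and -0.13. By chromosome, the domains covered the largest share of chromosome 19 (7.75%) and the smallest of chromosomes 16 (2.73%) and 3 (2.83%).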

How the data were processed

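Regions of each mark were called by the authors on young and old samples together and were deposited as a table with 1 signal column per library. The submitters' processing notes name Bowtie2, Picard and the builds mm10 and GRCm38; the caller is not given in the sources used here. The deposited signal, named RPKM by the authors, had been scaled by library size and a constant 0.5 kb, not by region length: in each of the 12 libraries 100% of values were whole multiples of 1 step (tolerance 0.01), so whole reads were recovered. Density is this signal times 0.5 divided by length in kb. The article supplied with the series does not report these libraries and was used for style only.

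Libraries were scaled by median ratios (RLE), and log2(signal + 0.5) of all 28047 H3K27me3 and, separately, 31617 H3K27ac regions was fitted with limma 3.58.1 (trend, robust, age only, two-sided, Benjamini-Hochberg adjustment over each table, no filter on low values); edgeR 4.0.16 on recovered reads was the alternative. On simulated data limma recovered 90% and edgeR 90.5% of 200 changed H3K27me3 regions, with 10 and 12 false calls. Recovery at the size and spread of the domain differences reported here was not tested. Single values per library were compared by exact permutation tests, which cannot go below 0.10. Regions were counted as overlapping from 1 bp. Replicate numbers did not pair the libraries (same-number correlations 0.025, 0.043 and -0.078 for H3K27me3). Genes came from GENCODE vM21, sequences from RefSeq. All but 2 of the listed genes, Ventx and Drgx, were matched. The transcription factor list also held Otop1, a proton channel, Lin28a, Lin28b, Mab21l1 and Mab21l2, and the signal list the membrane-bound Notch ligands. Domains were named by rule: the 12 densest, 6 faintest and 5 longest, those called (up to 6 in each direction), those with Hox clusters or listed osteogenic or adipogenic genes, and 3 on each side of the length limit; others were picked after their values were seen, and 1 of the faintest domains is not reported here. The domains and lists were chosen with earlier results of these data known.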

Additional observations from a re-analysis of the deposited data

How the results depend on the processing

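The number of domains called was 5 as reported (0.555%, against 0.488% of all regions) and 3 with a pseudocount of 0.1 (0.333%, against 0.253%). It was 28 with the signal as deposited, 18 and 20 with edgeR (RLE and TMM factors), and 9 with the replicate block (3.11%, 2.00%, 2.22% and 0.999% of domains, against 2.76%, 1.40%, 1.36% and 1.10% of all regions). In the reported fit, 3 domains of 150 kb or more (0.857%) and 10 of 75 kb or more (0.639%) were called, against the same 0.488%. With each replicate left out in turn, 0 to 17 domains were called (0% to 1.89%), against 0.0357% to 1.12% of all regions. limma without trend and robust moderation called 0 domains, against 0.125% of all regions, with 31 domains at an unadjusted p under 0.05, while edgeR called 18. The replicate block changed 1 of the 5 calls, that of Slc22a23 (adjusted p = 0.0783), and same-numbered libraries did not deviate together. Of 788 H3K27ac regions in domains, 2 were called as reported, against 26 of all 31617 H3K27ac regions. With edgeR 4 were called under both factors, against 96 (RLE) and 94 (TMM) of all H3K27ac regions. In limma without trend and robust moderation 0 were called (87 at an unadjusted p under 0.05), against 0 of all H3K27ac regions. With single replicates left out 1 to 3 were called, against 2 to 45 of all H3K27ac regions. In domains of 150 kb or more, 1 of 408 H3K27ac regions was called in the reported fit. The levels per library kept their sign under all alternatives run. Among the 27 domains named by rule whose fold changes were followed under each alternative, 2 changed sign, and neither was called: Hoxa11/Hoxa13/Evx1 (-0.11 as deposited, and -0.084 to 0.17 with single replicates left out) and Dlx3/Dlx4 (-0.18 to 0.12 with single replicates left out). The cause of these changes was not tested. The thinnest domain held 189 reads in the shallowest library.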
